A study of Drosophila melanogaster with 6 samples.

Results

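A set of 38 genes was lower in larval fly brains with Bub3 RNAi than in control brains in each of 3 batches, which are replicates from different days. The set was chosen by that difference. CPM, the unit of level used throughout, was the raw count scaled to the library total, and a gene had to have a mean of at least 1 CPM over the 6 libraries. Its log2(CPM + 0.5) in CIN minus that in ctrl had to be at or below -0.7 in each of the batches 4, 5 and 6. Of 14150 genes in the table, 9158 reached that mean and 50 met both conditions, 0.546% of the 9158. Of these 50, 12 were left out by name: pros, dati, cas, krimp, MED7 and all symbols starting with Cyp, Gst or lncRNA:. The mirror condition, at or above 0.7 in each batch, was met by 59 genes, 0.644% of the 9158. Because the contrast of CIN with ctrl chose the 38 genes, their differences are given as a description, and no test of that contrast bears on them.

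The RNA came from brains that were dissected from female larvae of Drosophila melanogaster in late L3, the stage before the pupa, at 96 h after egg laying and 29 °C. Larvae of the ctrl group were w; worniu-gal4, UAS-gfp-i, and those of the CIN group w; worniu-gal4, UAS-bub3-i. Both thus carried the worniu-gal4 driver, which acts in neuroblasts, the stem cells of the fly brain, and an RNAi transgene, against gfp in ctrl and against Bub3 in CIN. Each group held 3 libraries of polyadenylated RNA, 1 in each batch, and each library pooled 3 brains. Whole brains were read, so the neurons and glia that make up most of the tissue were included. In bulk RNA of this kind, fewer cells of a type and less RNA per cell cannot be told apart. A difference between the fly stocks and an effect of the knockdown cannot be told apart either, since the groups carried different transgenes.

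Libraries held 24668180 to 26292208 counts, so that 1 CPM stood for 24.7 to 26.3 counts. Bub3, the checkpoint gene targeted in CIN, stood at 150, 115 and 146 CPM in ctrl 4, 5 and 6 against 78.4, 98.8 and 94.9 CPM in CIN 4, 5 and 6, and lay below -0.7 in batch 4 only. Neuron and neuroblast markers were abundant in every library, with sums of 5089 to 6602 CPM for 20 neuron genes and 2079 to 3568 CPM for 13 neuroblast genes, of which brat alone gave 1240 to 2411 CPM. Their differences were not even over batches: in batch 4 the medians of the neuroblast, mitosis and DNA replication lists were -0.84, -0.78 and -0.63. In batches 5 and 6 they lay between -0.07 and 0.08. Markers of tissues that touch the brain varied widely. The ring gland list of 6 genes summed to 34.5, 1350 and 823 CPM in ctrl 4, 5 and 6 and to 2119, 26.8 and 708 CPM in CIN 4, 5 and 6, higher in CIN in batch 4 and lower in batches 5 and 6. The male-specific transcript lncRNA:roX2 had 243 counts in CIN 5 and 0 to 6 elsewhere, although the larvae are described as female. A second dosage compensation transcript, lncRNA:roX1, stood at 988 CPM in CIN 5 and at 149 to 455 CPM in the other libraries. The part of all these markers in the differences of the 38 genes was not tested.

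Several kinds of gene met in this set. Neural stem cells and their daughters are patterned by DNA-binding factors, which are often expressed in few cells and at low levels in a whole brain. Trypsin-like proteases digest food in the larval gut, glue proteins are made by the salivary gland, and larval serum proteins are made by the fat body and released into the blood. Peroxisomes, to which Pex7 belongs, take up enzymes of lipid metabolism through import receptors. Grouped by what they are known to do, a grouping made with their values known, the 38 genes held 6 DNA-binding factors, 7 other characterised genes, 3 non-coding genes or pseudogenes, 13 genes known by a number, 3 larval secreted proteins and 6 serine proteases of the gut.

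Most of the 38 genes were rare transcripts. Their median level was 4.24 CPM over the 6 libraries, against 35.4 CPM for the 9158 genes, and 34 of the 38 lay below that median. A mean under 5 CPM was found for 24 of them, 63.2%, against 14.2% of the 9158. Only Pex7, CG14715, CG10353 and Lsp1beta passed 50 CPM in ctrl. Per kilobase of exon, ctrl levels ran from 0.467 CPM for Root, at percentile 2.28 of the 9158 genes, to 123 CPM for CG14715, at percentile 94.2.

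The median over the 38 genes of the mean log2 difference was -1.46, against 0.04 for the 9158 genes. By batch their medians were -1.69, -1.36 and -1.25 in batches 4, 5 and 6, while those of the 9158 genes were -0.04, 0.11 and 0.02. The largest difference fell in batch 4 for 20 genes, in batch 5 for 13 and in batch 6 for 5. Those of batch 4 included all 6 gut proteases and all 3 larval secreted proteins, but 3 of the DNA-binding factors. For 33 genes the mean difference was at or below -1, and for 11 at or below -2. The 3 CIN libraries lay entirely below the 3 ctrl libraries for 29 of the 38 genes, where the same held for 5.72% of the 9158; the rule used that contrast, so nothing follows from the larger share. The 9 genes whose groups overlapped were the 6 proteases, Lsp1beta, Sgs7 and CG12310.

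**Figure D1:**
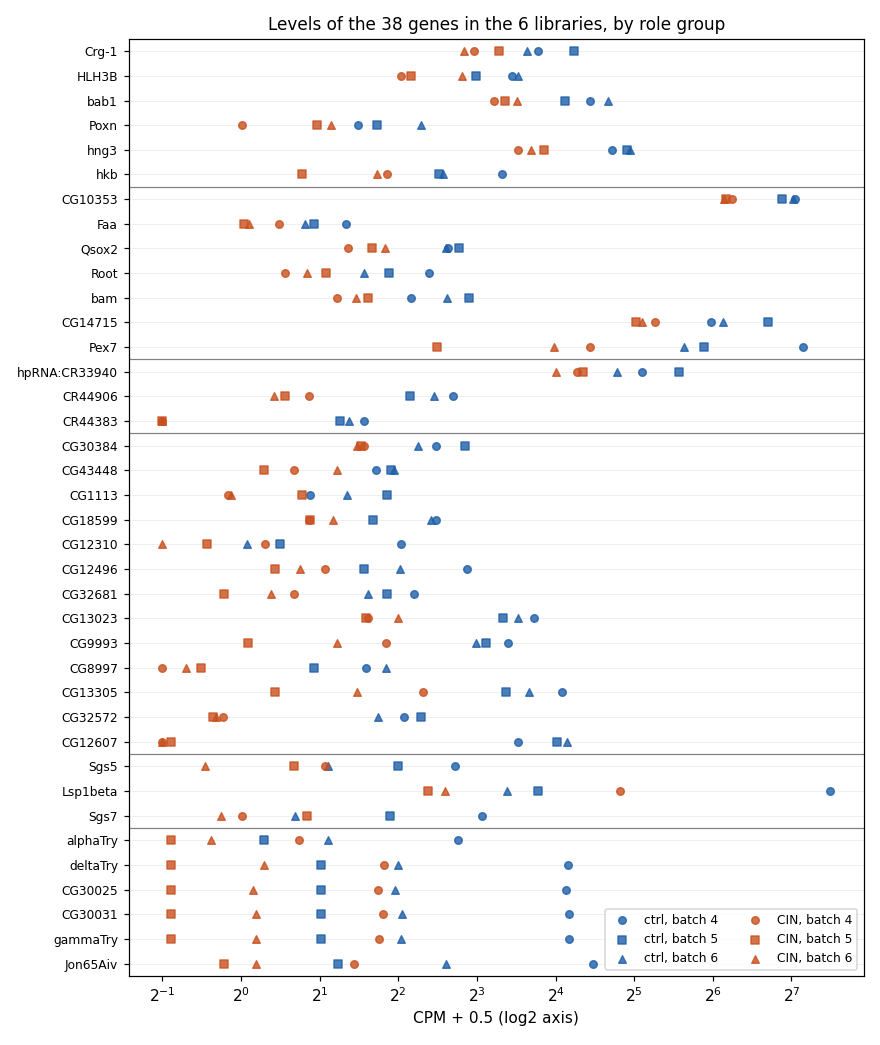
CPM + 0.5 (log2 axis) of each of the 38 genes in ctrl (blue) and CIN (orange), with circles, squares and triangles for batches 4, 5 and 6 and lines between the role groups, from the top DNA-binding factors, other characterised genes, non-coding genes and pseudogenes, genes known by a number, larval secreted proteins and gut proteases. The groups are apart for 29 genes, and the 6 proteases at the foot overlap.

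**Figure D2:**
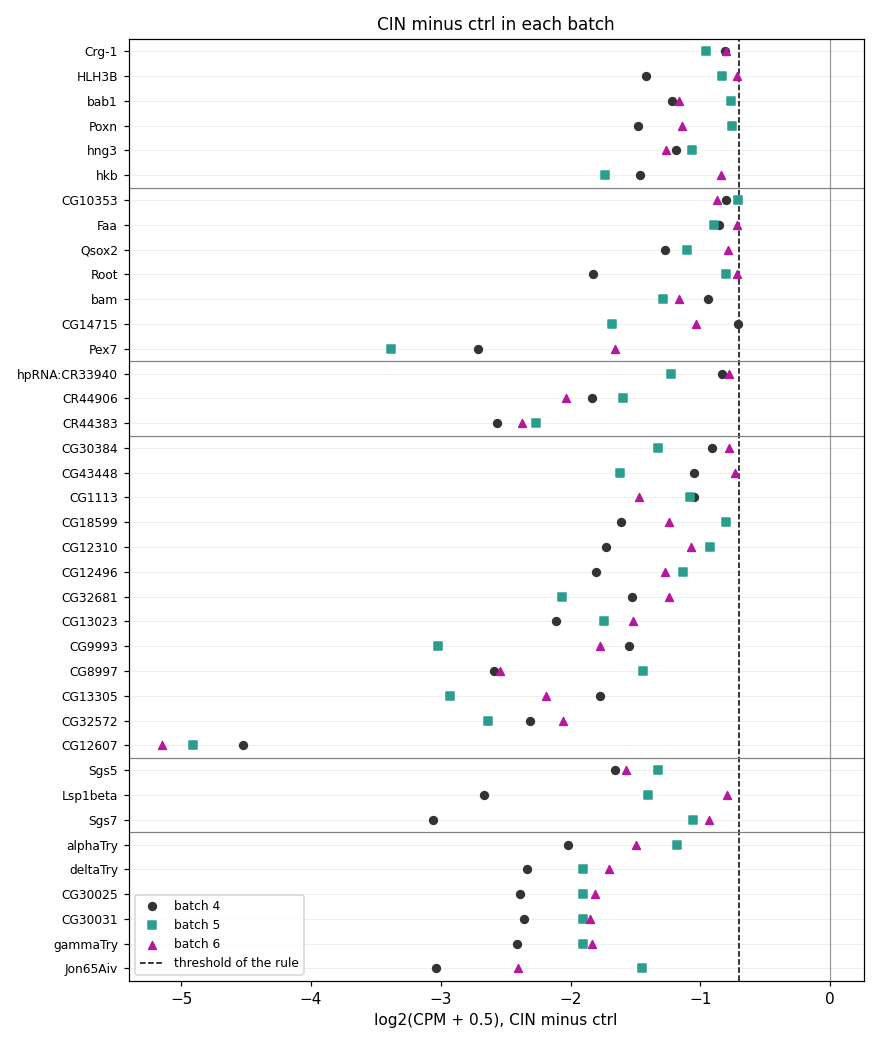
Log2(CPM + 0.5) in CIN minus ctrl for each gene in batches 4, 5 and 6, in the same order, with the threshold of -0.7 as a dashed line. All points lie at or left of the threshold because it chose the genes, and CG12607 lies farthest left, at -4.53, -4.91 and -5.15.

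Among the DNA-binding factors, hkb, bab1, hng3, HLH3B, Crg-1 and Poxn, mean differences ran from -1.35 to -0.86 with a median of -1.09, and the groups overlapped for 0 of 6. The most abundant was hng3 (3L:737680-755489 in dm6 coordinates), a gene of the MADF family of DNA-binding proteins. It measured 25.7, 29.7 and 30.4 CPM in ctrl 4, 5 and 6 against 11.03, 13.9 and 12.3 CPM in CIN 4, 5 and 6. The lowest ctrl library thus stood 1.85-fold above the highest CIN library, and means were 28.6 ± 2.52 and 12.4 ± 1.44 CPM (SD, n = 3), 2.30-fold apart. Its 3 batch differences were close together, at -1.19, -1.07 and -1.27. On the opposite strand hng3 overlaps emc, at 247 to 368 CPM, whose differences were -0.06, 0.57 and 0.06, so reads of the pair may be mixed in a count that is not known to use strand.

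The gene bab1 (3L:1036369-1101089), a BTB-domain factor that patterns legs, abdomen and ovary, measured 21.2, 16.8 and 24.96 CPM in ctrl 4, 5 and 6 against 8.84, 9.73 and 10.9 CPM in CIN. Its ctrl libraries all lay above its CIN libraries, 2.14-fold apart in the mean. It was on the list of imaginal disc markers, whose other 10 genes summed to 359, 340 and 389 CPM in ctrl against 339, 474 and 426 CPM in CIN, lower in CIN in batch 4 and higher in batches 5 and 6. The huckebein gene hkb (3R:4345015-4346646), a zinc finger factor of the embryonic gut ends and of some neuroblasts, measured 9.47, 5.21 and 5.46 CPM in ctrl against 3.12, 1.22 and 2.82 CPM in CIN. Its highest ctrl library was ctrl 4, and its lowest CIN library was CIN 5.

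HLH3B (X:2680199-2681723), a basic helix-loop-helix gene listed by RefSeq under the synonym DroSCL, measured 10.4, 7.45 and 11.04 CPM in ctrl against 3.58, 3.97 and 6.51 CPM in CIN. Here CIN 6 came within 1.14-fold of the lowest ctrl library, the closest approach among the 6 factors. Crg-1 (X:3793223-3797339), a forkhead gene first described as regulated by the circadian clock, measured 13.2, 18.3 and 11.9 CPM in ctrl against 7.29, 9.20 and 6.63 CPM in CIN. Its batch differences of -0.81, -0.96 and -0.80 were among the most even of the set, with an SD of 0.09 where the median of the 38 genes was 0.32. Poxn (2R:15826693-15835055), a paired-domain factor that specifies chemosensory bristles and neurons in the brain, was the rarest factor, with 2.31, 2.81 and 4.39 CPM in ctrl against 0.506, 1.46 and 1.71 CPM in CIN. It lies opposite tun, a gene at 80.4 to 109 CPM, and what share of its few counts comes from that gene was not tested.

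The other characterised genes were CG10353, CG14715, Pex7, bam, Qsox2, Root and Faa, and for all 7 the groups lay apart. CG10353 (X:11877737-11887162), of the anoctamin family of membrane channels and lipid scramblases, had the highest mean CPM of the set, not corrected for exon length. It measured 132, 117 and 129 CPM in ctrl against 75.1, 71.5 and 70.2 CPM in CIN. Libraries of a group lay close together, with means of 126 ± 7.65 and 72.3 ± 2.54 CPM (SD, n = 3), and the mean difference of -0.80 was the smallest of the 38. The SD of its batch differences, 0.08, was also the lowest.

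CG14715 (3R:11674221-11674923), listed by RefSeq under the synonym FKBP13, a name of the FK506-binding prolyl isomerases that help proteins to fold, measured 62.4, 104 and 69.6 CPM in ctrl against 38.03, 31.9 and 33.8 CPM in CIN. Its CIN libraries were alike, and ctrl 5 stood above the other ctrl libraries. In batch 4 its difference of -0.71 was the nearest to the threshold in the set, and with libraries scaled by TMM or RLE it no longer met the rule. On the opposite strand CG14715 overlaps CG18476, at a mean of 22.2 CPM.

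Pex7 (3L:8647145-8651011), the receptor that carries enzymes with a second type of targeting signal into the peroxisome, showed a larger difference. It measured 142, 58.5 and 49.1 CPM in ctrl 4, 5 and 6 against 21.2, 5.15 and 15.2 CPM in CIN 4, 5 and 6. The highest CIN library was below the lowest ctrl library by 2.32-fold, and the group means were 6.00-fold apart. Batch differences were uneven, at -2.71, -3.38 and -1.66, and ctrl 4 was 2.88-fold above ctrl 6.

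The neighbour of Pex7, CG13305 (3L:8644916-8646822), was also in the set. The pair is arranged head to head on opposite strands with 322 bp between them, the closest pair among the 38 genes. CG13305 measured 16.5, 9.81 and 12.2 CPM in ctrl against 4.48, 0.851 and 2.29 CPM in CIN, with batch differences of -1.77, -2.93 and -2.19. In both genes the lowest of the 6 libraries was CIN 5 and the highest ctrl 4. The 4 other genes of at least 1 CPM within 25 kb of Pex7, namely GAPsec, Zasp66, Cdc6 and hry, had mean differences from -0.34 to 0.46. Arr2, which lies opposite Pex7, was at 0.0811 to 0.729 CPM.

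**Figure D3:**
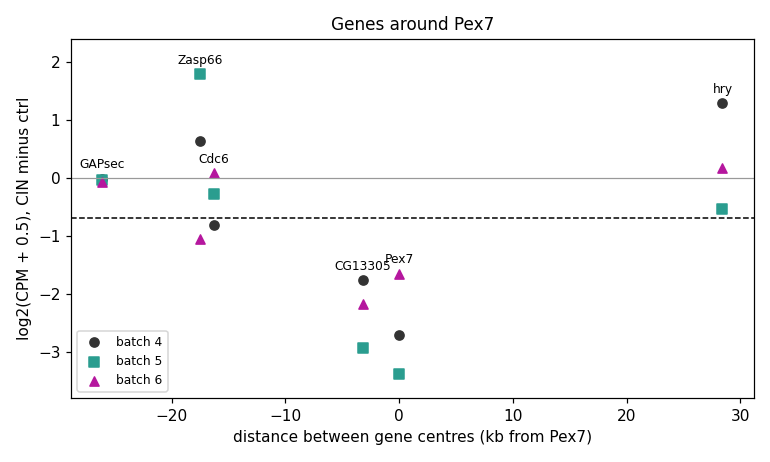
Log2(CPM + 0.5) in CIN minus ctrl in batches 4, 5 and 6 for Pex7 and the genes of at least 1 CPM within 25 kb of it, against the distance between gene centres in kb. Pex7 and CG13305 lie below the dashed threshold of -0.7 in all batches, and the other 4 genes do not.

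The germline gene bam (3R:25243039-25245109), which switches stem cell daughters to differentiation in the fly ovary and testis, measured 3.97, 6.96 and 5.66 CPM in ctrl against 1.83, 2.55 and 2.25 CPM in CIN. The groups lay apart by 1.55-fold at their nearest libraries. The other 7 genes of the germline list summed to 29.5, 29.9 and 29.7 CPM in ctrl against 27.9, 39.9 and 29.3 CPM in CIN, lower in CIN in batches 4 and 6 and higher in batch 5.

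Qsox2 (3R:21913747-21915546), a sulfhydryl oxidase that forms disulfide bonds, was even within groups, with 5.71, 6.31 and 5.62 CPM in ctrl against 2.06, 2.68 and 3.05 CPM in CIN. Root (3R:24113286-24128193), the rootletin of the ciliary rootlet in sensory neurons, measured 4.74, 3.19 and 2.45 CPM in ctrl against 0.974, 1.62 and 1.30 CPM in CIN. It overlaps CG13607 and GatB on the other strand. Faa (3L:4072032-4073954), the fumarylacetoacetase at the last step of tyrosine breakdown, was barely above the level filter, at 2.02, 1.41 and 1.27 CPM in ctrl against 0.896, 0.527 and 0.571 CPM in CIN. Its batch differences of -0.85, -0.89 and -0.72 were nonetheless close together.

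Of the 3 genes without a protein, hpRNA:CR33940 (3L:19486745-19488439) was the most abundant. It is a hairpin RNA, a type of transcript that folds back on itself and is cut into small interfering RNAs. It measured 33.9, 47.1 and 27.1 CPM in ctrl against 18.8, 19.8 and 15.5 CPM in CIN, 2.00-fold apart in the mean. The groups did not overlap, and ctrl 5 stood highest. The pseudogene CR44906 (2L:19740839-19742506) measured 5.99, 3.96 and 4.98 CPM in ctrl against 1.32, 0.973 and 0.838 CPM in CIN, with the lowest ctrl library 2.99-fold above the highest CIN library. The pseudogene CR44383 (X:15796477-15796897) had 164 counts over the ctrl libraries and 0 in all 3 CIN libraries. With CIN set to a floor of 3 counts over the group, the ratio was 54.9, and the 95% exact interval of the ratio reaches down to 44.1-fold. Such intervals, here and below, pool the libraries of a group and cover counting error only. They use the contrast that chose the genes, so they describe the counts and support no difference. The genes given one reached the minimum mean of 1 CPM through ctrl alone.

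Among the genes known by a number, CG12607 (3L:4446573-4448072) had the largest mean difference of the 38, -4.86. It measured 11.01, 15.7 and 17.2 CPM in ctrl, and the CIN libraries together held 1 count, in CIN 5, against 1121 in ctrl. The ratio was 1126 with a 95% exact interval from 202 to 44498, which rests on that count. CG32572 (X:16721183-16726948) was 11.7-fold lower, at 24 counts in CIN against 279 in ctrl, with a 95% exact interval from 7.68 to 18.5. Its CIN libraries lay close together at 0.351, 0.284 and 0.305 CPM, far below the 2.85 CPM of the lowest ctrl library. CG8997 (2L:13843915-13845325) was 22.2-fold lower, at 8 counts in CIN against 177 in ctrl, with a 95% exact interval from 11.03 to 52.3 and 0 counts in CIN 4. The pseudocount of 0.5 CPM understates such differences, so that the mean log2 differences of CG32572 and CG8997 were -2.34 and -2.19.

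CG32572 and CG8997 each overlap a more abundant gene on the opposite strand, CG34325 and CenG1A. CG13023 (3L:16923914-16927434) was steadier, with 12.8, 9.58 and 10.96 CPM in ctrl against 2.57, 2.51 and 3.50 CPM in CIN, 3.88-fold apart. CG9993 (2R:20850146-20852125) measured 10.0, 8.18 and 7.44 CPM in ctrl against 3.08, 0.568 and 1.83 CPM in CIN, and CIN 5 was again the lowest. In both genes the lowest ctrl library stood over 2.4-fold above the highest CIN library. CG30384 (2R:7182997-7185298) measured 5.06, 6.73 and 4.27 CPM in ctrl against 2.45, 2.39 and 2.29 CPM in CIN. It overlaps pk and CG30385 on its own strand, and CG30385, with differences of -0.68, -0.99 and -0.73, was among the genes just outside the rule.

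The remaining 6 numbered genes besides CG13305, which were CG32681, CG12496, CG12310, CG18599, CG1113 and CG43448, had means from 1.69 to 4.29 CPM in ctrl and from 0.328 to 1.47 CPM in CIN. CG32681 had the lowest ctrl level per kilobase of them, 0.693 CPM. On the opposite strand CG32681 overlaps CG17841, at a mean of 57.2 CPM. CG12310 had the lowest mean CPM of the 38 over all libraries, 1.01, not corrected for exon length. Its groups overlapped, with 3.60, 0.913 and 0.554 CPM in ctrl 4, 5 and 6 against 0.740, 0.243 and 0 CPM in CIN. It lies within Sytbeta on the same strand.

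The 6 gut proteases varied widely among ctrl libraries, as did Lsp1beta, Sgs7 and CG12310. In all 6 proteases the highest ctrl library was ctrl 4, by 8.68- to 11.7-fold over the lowest, which was ctrl 5. Over the 38 genes, 10 had a ratio of over 3 between ctrl libraries, 26.3%, against 5.77% of the 9158. These 10 include the near-identical trypsin copies described below, and the shares are not matched for level. The SD of log2(CPM + 0.5) over ctrl libraries had a median of 0.39 in the 38 genes and 0.20 in the 9158. Among those of the 9158 under 5 CPM it was 0.36. The serine protease gene Jon65Aiv (3L:6039155-6040135), of the Jonah family, measured 21.8, 1.86 and 5.58 CPM in ctrl against 2.22, 0.365 and 0.648 CPM in CIN. CIN 4 was thus above ctrl 5, and only within a batch was CIN lower each time.

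The 5 trypsin genes lie together on 2R, with gammaTry at 11349061-11349870, CG30031 at 11350811-11351621, CG30025 at 11353564-11354373, deltaTry at 11355319-11356128 and alphaTry at 11344260-11345119. Counts in ctrl 4, 5 and 6 and CIN 4, 5 and 6 were 432, 40, 91, 74, 1 and 17 for gammaTry. For CG30031 they were 432, 40, 92, 77, 1 and 17, for CG30025 420, 40, 86, 73, 1 and 16, and for deltaTry 428, 40, 88, 78, 1 and 19. These 4 near-identical copies thus gave almost the same number in each library, so the counting may have split or shared reads among them, and they are best read as 1 measurement. alphaTry, at 155, 19, 42, 30, 1 and 7 counts, followed the same order of libraries at a lower level. In batch 5 the difference of all 5 rests on 1 count in CIN.

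Larval secreted proteins varied in a like way. Lsp1beta (2L:898500-901316), a subunit of the serum storage protein of the larva, measured 179, 13.2 and 9.93 CPM in ctrl against 27.9, 4.70 and 5.52 CPM in CIN. CIN 4 was above ctrl 5 and ctrl 6, and the differences were uneven, at -2.67, -1.40 and -0.79 in batches 4, 5 and 6. The glue protein gene Sgs7 (3L:11509861-11510247) measured 7.89, 3.23 and 1.11 CPM in ctrl against 0.506, 1.30 and 0.343 CPM in CIN, and CIN 5 lay above ctrl 6. Sgs5 (3R:17595362-17596112), another glue protein gene, measured 6.11, 3.50 and 1.66 CPM in ctrl against 1.60, 1.09 and 0.229 CPM in CIN, where ctrl 6 and CIN 4 differed by only 1.04-fold.

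Other markers of the same tissues stand beside these values. The other 9 gut markers summed to 87.3, 3.54 and 5.82 CPM in ctrl 4, 5 and 6 and to 8.73, 4.91 and 4.30 CPM in CIN, lower in CIN in batches 4 and 6 and higher in batch 5. In ctrl 4 most of that sum was Jon99Ciii, another gene of the Jonah family, at 70.7 CPM, against 0.304 to 2.57 CPM elsewhere. The other 8 fat body markers summed to 534, 266 and 233 CPM in ctrl and to 196, 198 and 218 CPM in CIN. That sum was lower in CIN in every batch, but apolpp alone gave much of it. It stood at 214, 210 and 192 CPM in ctrl and at 115, 147 and 180 CPM in CIN. Apoltp of the same list was higher in CIN in every batch, with differences of 0.84, 0.67 and 0.11. Within that list Fbp2, Fbp1 and the other larval serum protein genes Lsp1alpha, Lsp1gamma and Lsp2 had differences from -3.06 to -1.95 in batch 4, from -1.85 to 0.59 in batch 5 and from -0.95 to -0.01 in batch 6. The other 8 salivary gland markers summed to 94.9, 58.5 and 47.6 CPM in ctrl and to 49.7, 69.5 and 34.9 CPM in CIN, higher in CIN in batch 5 through CrebA, a factor of secretory cells at 23.04 to 52.9 CPM. Without CrebA, left out after its values were seen, the other 7 genes summed to 71.8, 23.5 and 18.1 CPM in ctrl and to 9.55, 16.6 and 2.25 CPM in CIN. That sum was lower in CIN in every batch, but Sgs3 gave most of it in ctrl. Sgs3 stood at 45.6, 16.7 and 11.9 CPM in ctrl and at 4.95, 10.6 and 0.876 CPM in CIN. In batch 5 Sgs1 and Sgs4 were higher in CIN, with differences of 0.52 and 0.17. The part of carried-over tissue in the protease, Lsp1beta and Sgs differences was not tested.

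**Figure D4:**
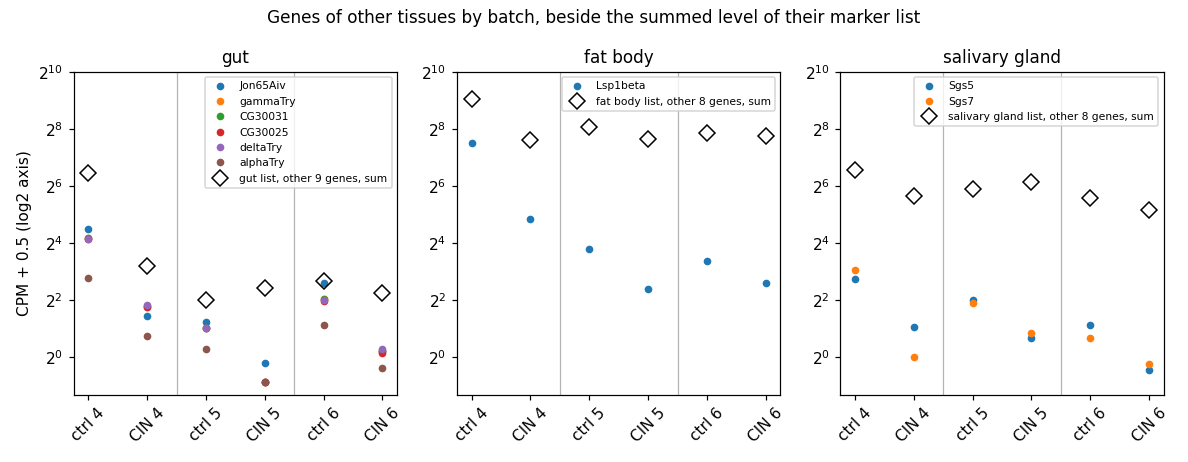
CPM + 0.5 (log2 axis) of the proteases (left), Lsp1beta (middle) and Sgs5 and Sgs7 (right) as dots, with libraries ordered by batch, and the summed level of the other genes of the gut, fat body and salivary gland lists as diamonds. The dots are highest in ctrl 4, where all 3 diamonds are also highest.

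**Figure D5:**
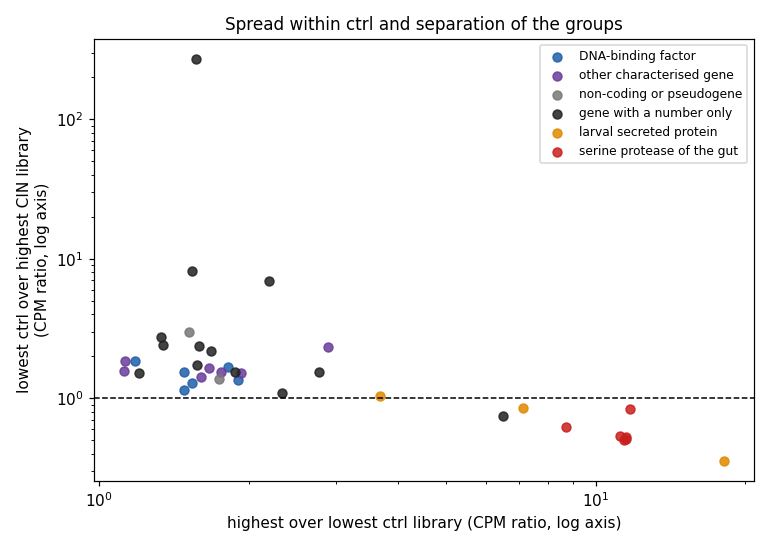
For each gene, the ratio of the lowest ctrl to the highest CIN library against the ratio of the highest to the lowest ctrl library, both in CPM on log axes, coloured by role group; CR44383, at 0 in CIN, is not drawn. Points under the dashed line at 1 have overlapping groups, and they are the genes with the widest spread within ctrl.

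The edgeR quasi-likelihood test over all genes, with Benjamini-Hochberg adjustment, put 2 of the 38 genes past 0.05, CG12607 and CG32572, where it called 5 of 10074 genes lower, 0.0496%. A fit in edgeR that held the batch as a replicate block left 0 genes called lower. At an unadjusted p under 0.05 that fit put 401 of 10074 genes lower and 473 higher. Without the block these were 379 and 416. The calls of DESeq2 were 55 lower genes, 0.549%, among them 21 of the 38. These counts use the contrast that chose the genes and say nothing further about them. Of the list genes that were not in the set, the test called 1 lower, pros of the ganglion mother cell and newborn neuron list, and 0 higher.

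The 38 genes came from the X and both large autosomes, with 0 on chromosome 4. The X held 7, or 18.4%, against 17.3% of the 9158, 3L held 11, or 28.9%, against 19.6%, and 2L held 3, or 7.89%, against 17.5%. Within 10 kb of another gene of the set lay 7 genes, namely Pex7, CG13305 and the 5 trypsins. Of 176 other genes of at least 1 CPM within 25 kb, 0 met the rule, which only the 12 genes left out by name could have done. The median of the mean differences of the 176 was 0.02. Among these neighbours, 9, or 5.11%, had a mean difference at or below -0.7, against 1.99% of the 9158. They included epsilonTry, Jon65Aiii and yip7 beside the proteases and Sgs3 and Sgs8 beside Sgs7. An overlap with a gene of at least 1 CPM on the opposite strand was found for 8 of the 38 genes, 21.1%, against 32.0% of the 9158. The median exon length was 1464 bp, against 2222 bp.

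Near the threshold, the genes just inside by their smallest difference were CG14715, CG10353 and Root, at -0.71, -0.71 and -0.72. Just outside were CG42489, CG30385 and CG6293, at -0.69, -0.68 and -0.68. By level, the genes just inside were CG12310, CR44383 and Faa, at 1.01, 1.08 and 1.12 CPM, and just outside Prdm13, CG32686 and CG7916, at 0.998, 0.975 and 0.965 CPM.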

How the data were processed

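The authors deposited raw counts, whole numbers per gene and library, for 14150 genes in 6 libraries. Reads were processed with Trim Galore, STAR 2.7.10a and featureCounts on dm6, per the submitters' processing notes; settings, strand use, annotation release and the treatment of reads with several matches are not stated in the sources used here. Symbols were matched for 14074 genes by identifier. Coordinates and exon lengths come from an Ensembl annotation of BDGP6, the assembly that dm6 names. CPM used raw totals, and differences were taken within a batch, since the labels give both genotypes a batch. The correlations across genes of same-batch deviations from the group means were 0.04, -0.09 and 0.23 in batches 4, 5 and 6.

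edgeR 4.0.16 (R 4.3.3) was run on all genes passing filterByExpr, with TMM scaling, on genotype alone; DESeq2 1.42.0, batch as a replicate block, RLE, other filters and leaving out each library were alternatives. With 3 libraries a group, no test of single values was run, and p-values reflect how far pools of 3 brains from different days varied. Both scripts were tested on simulated data. The simulation for the rule held counting error only, and its planted falls were in genes of a higher level than most of the set. It thus does not cover rare genes or variation between libraries. The genes, role groups and lists were chosen with earlier results of these data known. The rule for named genes takes all members of a set of up to 40 genes, then genes nearest the thresholds. No sequence is printed.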

Additional observations from a re-analysis of the deposited data

How the results depend on the processing

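Scaling by TMM or RLE gave 43 and 42 genes in place of 38, 37 of them shared in each case, and moved the median of all genes by under 0.1. A pseudocount of 0.1 gave 51 genes, a pseudocount of 2 gave 17, a threshold of -0.5 gave 61 and one of -1 gave 20. A minimum mean of 5 CPM gave 14 genes and no minimum 57. With no replicate block, every CIN library against every ctrl library, 13 genes stayed 0.7 apart, among them CG12607, Pex7, CG13305, CG14715 and hng3. Leaving out 1 library, and with it the comparison of its batch, gave 77 to 122 genes. The count of genes that edgeR called lower was 5, against 0 with batch as a replicate block and 55 by DESeq2, and 1 to 3 when any of the 6 libraries was left out. The cause of these changes was not tested, beyond the fewer conditions or libraries each has by construction. The mean difference of each of the 38 genes stayed negative under TMM scaling and both pseudocounts, a sign that the rule had fixed. A pseudocount cannot change a sign, and the TMM factors ran only from 0.943 to 1.03. Mean differences moved by more than their SD over batches for 0, 15 and 21 genes under TMM, 0.1 and 2.

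Depth limits the rare genes most: at 1 CPM a library gives about 25 counts.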
